A study of Mus musculus with 2 samples.

Results

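ATP-binding cassette (ABC) genes encode a family of proteins that share an ATP-hydrolysing domain, and 42 of the 21829 protein-coding genes of GENCODE release M21 were taken as members. A member's symbol is Abc, a subfamily letter from a to g and then digits. The bile exporter genes Abcb4, Abcb11, Abcc2 and Abcc3 were left out by that rule, and the 4 symbols that end in a further letter (Abca8a, Abca8b, Abcb1a and Abcb1b) do not meet it. The rule uses symbols and no measured value, but it was chosen with earlier results of these data known.

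The data are peak lists from chromatin immunoprecipitation sequencing of EP300 in the liver of mice of the B6NCrl strain at 0 days of age, with sex not collected. There was 1 group of 2 replicates and no genotype or treatment to compare. By their labels the replicates come from a single biosample and donor, so the spread between them may be technical. The list examined is the authors' optimal list, which keeps peaks that pass a test of reproducibility between peak rankings (the irreproducible discovery rate, IDR). Of its 26883 peaks, the 26844 on chromosomes 1 to 19 and X were analysed.

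EP300, or p300, is a histone acetyltransferase and coactivator, brought by DNA-bound transcription factors to enhancers and promoters in use. Most ABC proteins use ATP to move lipids, sterols, drugs, conjugates or peptides across a membrane, while those of subfamilies E and F lack a membrane domain and act on ribosomes and translation. The liver uses ABC transporters to load lipoproteins with cholesterol, to secrete sterols into bile and to export drugs and conjugates, and in the newborn it still holds blood-forming cells, whose erythroid precursors need mitochondrial transport for heme synthesis.

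A gene was counted when the summit of a peak, its highest point, lay near a transcription start site (TSS) of a protein-coding transcript. Signal is the authors' value for each peak. Its scale is not stated, so levels are compared within a list, and values of different lists stand side by side for description only. Distances below are to the gene's nearest TSS. Read counts are not part of the lists, so the depth is unknown, and intervals cover the counting of genes or windows only. A peak near a gene is not a measurement of that gene's expression. In a bulk tissue, binding in fewer cells and weaker binding in each cell cannot be told apart.

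The lists hold peaks near markers of more than 1 liver cell type. In the optimal list, 6 of 6 hepatocyte markers and 6 of 6 erythroid markers had a summit within 10 kb, with the strongest signal per gene at 49.3 to 134 and at 182 to 390. The same held for 4 of 4 sinusoidal endothelial markers and 3 of 3 megakaryocyte markers. It held for 0 of 5 Kupffer cell markers, 0 of 4 bile duct markers and 0 of 5 markers of other tissues. These small lists were chosen by hand and stand beside 38.1% of the protein-coding genes that are not members. The nearest summits lay at 11.6 to 237 kb for the Kupffer cell markers and at 52.7 to 170 kb for the bile duct markers. The share of each cell type in the tissue was not measured, and its part in the values below was not tested.

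The sequences at the summits that the results turn on are printed first. Each is the 101 bases centred on a summit, from the GRCm38 genome (the assembly of mm10), plus strand, with the letters of any searched motif in capitals. Abcg2, Abcb10 and Abcg4 hold the strongest distal and promoter summits within 10 kb of a member. Those of Abcb6 and Abca1 were added after their values were seen, as a heme gene's promoter and as the strongest summit of a sterol exporter. The last, at the Abcg5 and Abcg8 pair, comes from the authors' conservative list.

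Abcg2, intron summit, chr6:58642412-58642512: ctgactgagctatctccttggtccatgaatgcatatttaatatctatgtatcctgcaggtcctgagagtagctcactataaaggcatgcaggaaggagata

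Abcg2, promoter summit, chr6:58640782-58640882: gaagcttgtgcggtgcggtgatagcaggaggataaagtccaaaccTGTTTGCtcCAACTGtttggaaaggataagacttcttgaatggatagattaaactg

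Abcb10, upstream summit, chr8:123988768-123988868: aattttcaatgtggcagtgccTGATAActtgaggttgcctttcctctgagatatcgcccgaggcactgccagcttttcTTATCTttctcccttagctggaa

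Abcg4, promoter summit, chr9:44288568-44288668: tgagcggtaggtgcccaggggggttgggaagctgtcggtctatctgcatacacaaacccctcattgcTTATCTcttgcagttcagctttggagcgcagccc

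Abcb6, promoter summit, chr1:75179372-75179472: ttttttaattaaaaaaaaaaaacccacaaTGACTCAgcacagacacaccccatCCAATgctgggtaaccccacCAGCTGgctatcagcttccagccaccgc

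Abca1, intron summit, chr4:53121206-53121306: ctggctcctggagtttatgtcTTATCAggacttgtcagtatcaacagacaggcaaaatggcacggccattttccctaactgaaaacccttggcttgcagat

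Abcg5 and Abcg8, summit in an Abcg8 intron, chr17:84689469-84689569: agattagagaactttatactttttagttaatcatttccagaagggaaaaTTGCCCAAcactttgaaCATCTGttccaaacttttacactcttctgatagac

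The capitals mark 2 GATA matches at Abcb10 and 1 each at Abcg4 and Abca1. They mark a FOXA match and an E-box at the Abcg2 promoter, and NFE2, NFY and E-box matches at Abcb6. At the Abcg5 and Abcg8 summit they mark a CEBP match and an E-box. No motif of the search was found in the window of the strongest member summit, that in Abcg2. The GATA search took only AGATAA and TGATAA. Other forms with GATA at their core, such as AGATAG on the minus strand of this Abcg2 window, were not searched.

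EP300 summits lay within 10 kb of a TSS at 20 of the 42 ABC genes (47.6%, 95% Clopper-Pearson interval 32.0 to 63.6). Among the other 21787 protein-coding genes the share was 38.1%, and among 334 solute carrier genes, the other large class of membrane transporters, it was 47.0%. The difference from the other genes was 9.50 percentage points, with an interval of -6.11 to 25.5 that takes their share as fixed. Within 50 kb the counts were 32 of 42 ABC genes (76.2%, 60.5 to 87.9), against 64.4% of the other genes and 72.2% of the solute carriers. Within 1 kb they were 11 of 42 (26.2%, 13.9 to 42.0), against 22.2% and 21.9%. All 3 intervals hold the share of the other genes, so no difference was detectable with 42 genes. ABC genes were also longer, with a median of 61.5 kb against 17.4 kb for the other genes and 29.3 kb for the solute carriers. The part of gene length in these shares was not tested. The median number of TSS positions was 2 in all 3 groups.

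**Figure D1:**
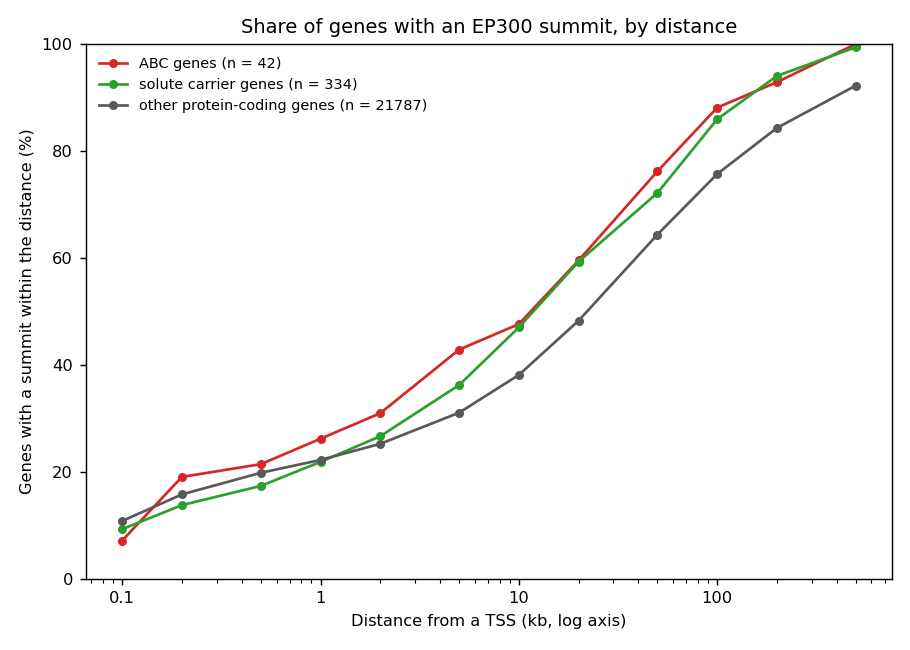
Share of genes (percent, vertical axis) with an EP300 summit of the optimal list within a given distance of a TSS (kb, log axis), for 42 ABC genes, 334 solute carrier genes and 21787 other protein-coding genes. At 10 kb the ABC genes (47.6%) lie beside the solute carriers (47.0%) and above the other genes (38.1%).

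The conservative list, which the authors also made from both replicates, gave a wider gap. There 23 of 42 ABC genes (54.8%, 38.7 to 70.2) had a summit within 10 kb, against 34.5% of the other genes and 43.7% of the solute carriers, and the difference from the other genes was 20.3 points. Within 50 kb it was 34 of 42 (81.0%, 65.9 to 91.4), against 61.1% and 69.5%. Both intervals lie above the share of the other genes, and both hold the share of the solute carriers. They treat genes as independent, although Abcg5 and Abcg8 share their summits within 10 kb here, and Abca3 and Abca17 share theirs. Members were also chosen with earlier results known, so the intervals are no test of enrichment. The highest peaks of a single replicate, as many as the optimal list holds, also gave a wider gap. They lay within 10 kb of 26 ABC genes in replicate 1 (61.9%, against 40.8% of the other genes) and of 24 in replicate 2 (57.1%, against 37.7%). The conservative list dropped Abcg1 and added 4 genes, among them Abca9, Abcg5 and Abcg8. The optimal and conservative lists have 19959 of their analysed peaks in common and neither contains the other.

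Gene starts rich and poor in CpG dinucleotides differed in how often they had a summit, so the shares were also taken by class. A gene start was called CpG-rich when the 1000 bases around it had an observed to expected CpG ratio of at least 0.6 and a GC content of at least 50%. By this rule 42.9% of ABC genes and 44.4% of the other genes were CpG-rich. Of the CpG-rich ABC genes, 9 of 18 had a summit within 10 kb (50%, 26.0 to 74.0), against 51.9% of the other CpG-rich genes. Of the CpG-poor ABC genes, 11 of 24 had a summit (45.8%, 25.6 to 67.2), against 27.1% of the other CpG-poor genes, a share just inside the interval. The class was taken at the outermost start of each gene, while a summit near any TSS of the gene was counted. Abca16, Abca4 and Abcg2, all CpG-poor, had no summit within 10 kb of that outermost start. The gap at CpG-poor starts thus rests in part on summits away from the sequence that was classed.

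**Figure D2:**
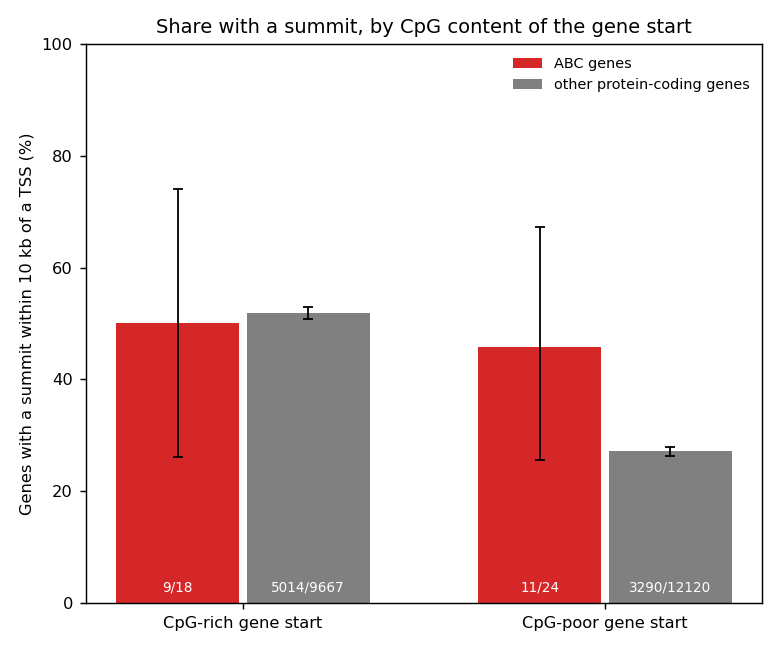
Share of genes with a summit within 10 kb of a TSS (percent, bars from 0), by CpG content of the gene start, for ABC genes and other protein-coding genes. Counts stand in the bars and error bars are 95% Clopper-Pearson intervals. The bars are close for CpG-rich starts (50% and 51.9%) and apart for CpG-poor starts (45.8% and 27.1%), where the lower end of the ABC interval is at 25.6%. CpG content was taken at the outermost start of each gene, and summits were counted at any TSS.

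The peaks at these 20 genes covered most of the range of the list. The strongest signal per gene within 10 kb ran from 35.5 to 541, with a median of 57.2. The median was 49.4 for the 8304 other genes with such a summit, 55.4 for the solute carriers and 38.3 for all 26844 summits of the list. Abcg2, Abcb10 and Abcb9 alone had a summit in the upper 10% of the list, which began at a signal of 122. They are 7.14% of the 42 ABC genes, beside 5.79% of the other genes and 9.58% of the solute carriers. All 20 summits were spanned by a peak in each replicate's own list, and 19 of the 20 were also in the conservative list. The replicate lists hold 300000 peaks each, and both IDR lists were made from the same replicates, so neither count is independent support.

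**Figure D3:**
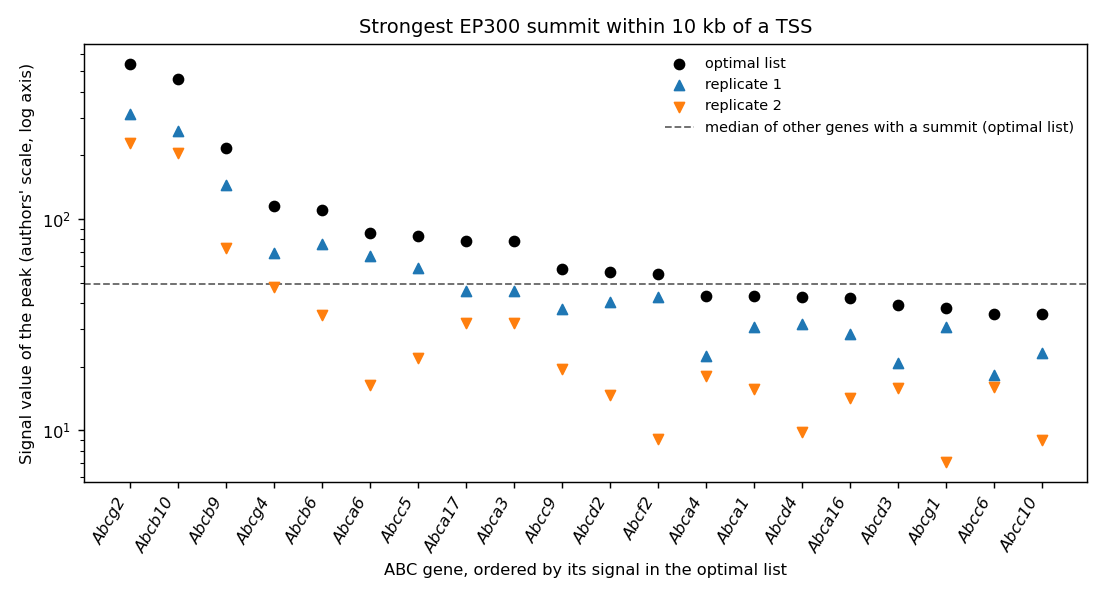
Signal of the strongest summit within 10 kb of each of 20 ABC genes (authors' scale, log axis), in the optimal list and in the peak of each replicate that spans it; the dashed line is the median of the other genes with a summit (49.4). Abcg2 (541), Abcb10 (461) and Abcb9 (216) stand above the rest, which lie between 35.5 and 116, and replicate 2 lies below replicate 1 at every gene.

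Signal was higher in replicate 1 than in replicate 2 at all 20 genes, which describes an offset between lists of unstated scale. The log2 ratio of replicate 1 to replicate 2 had a median of 0.98 (SD 0.64 across genes, range 0.20 to 2.23). Over all optimal summits spanned in both replicates the median was 0.94 (SD 0.69, 23882 summits). The offset at the ABC genes is therefore that of the whole list, and ranks within each replicate are given where levels matter.

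Within 10 kb of the members lay 34 distinct summits, 1 of them shared by Abca3 and Abca17. A member's TSS was the nearest for 32 of the 34. Promoter summits, within 1 kb of a protein-coding TSS, made up 15 (44.1%), and intronic summits 18 (52.9%). The list as a whole had 20.9% promoter and 39.3% intronic summits. Only 1 of the 34 was intergenic (2.94%, against 36.2%). The window was centred on TSSs, which favours promoter summits and leaves out far intergenic ones by construction. Distal summits of the members had a median signal of 58.0 and their promoter summits had 41.4, beside 38.7 and 36.8 over the whole list. The whole list also holds summits far from any gene, and summits within 10 kb of other genes were not taken as a class.

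**Figure D4:**
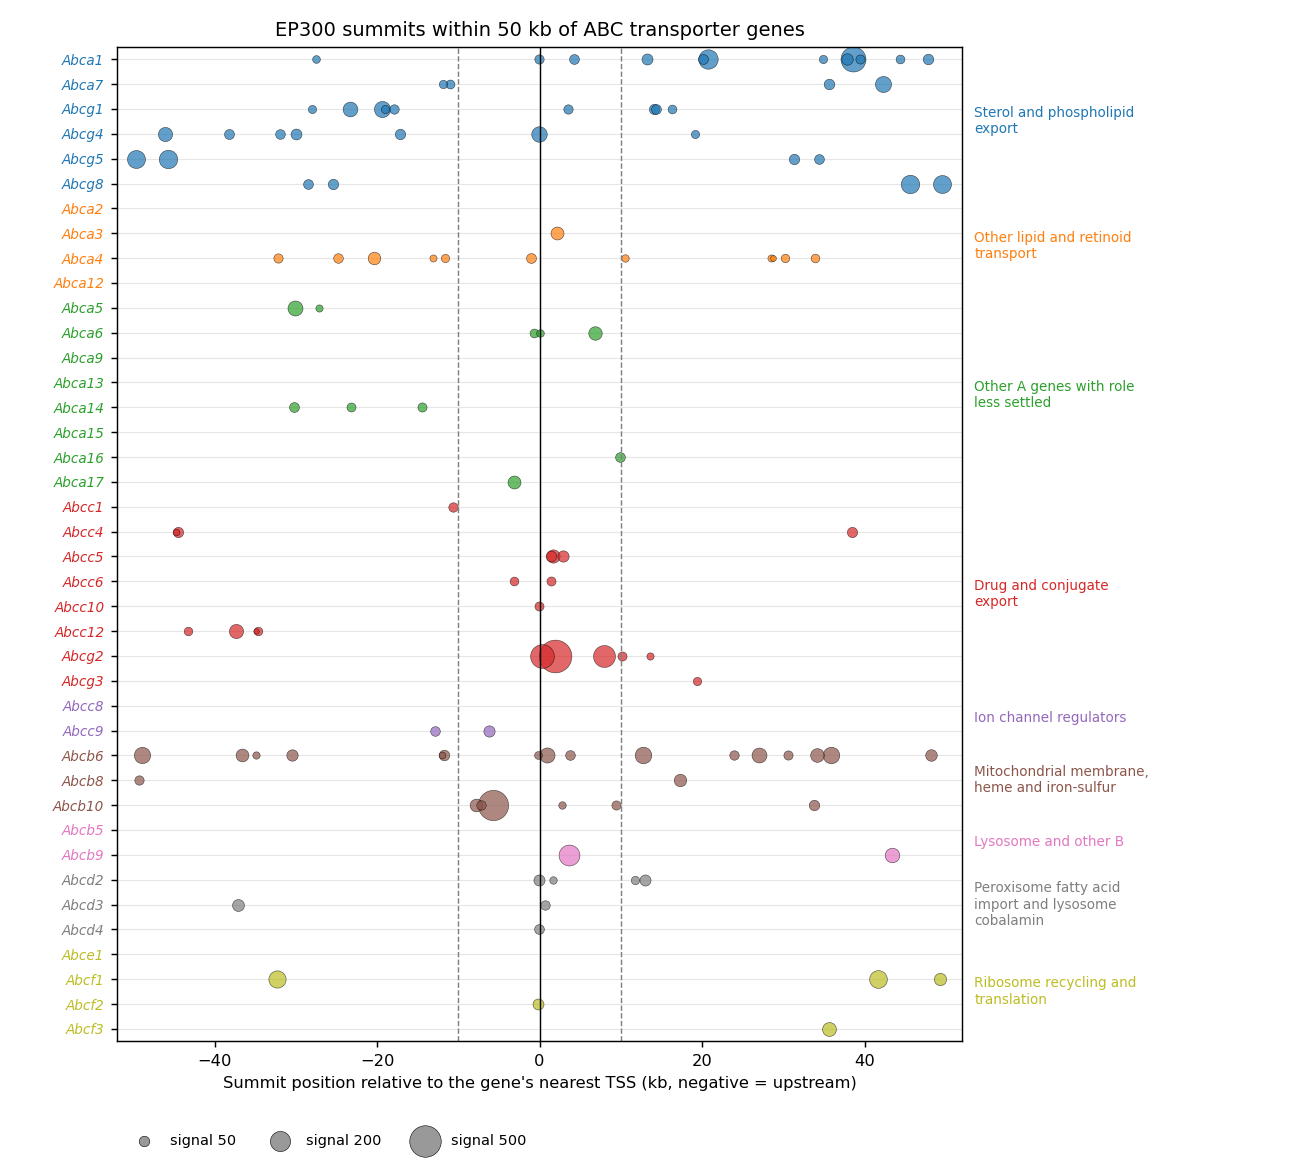
Position of every optimal-list summit within 50 kb of the ABC genes shown, relative to the gene's nearest TSS (kb, negative is upstream); the point area grows with the signal, the colours and labels at the right group genes by role, and dashed lines mark 10 kb. Abcg2 and Abcb10 carry the largest points close to a TSS, Abca1 and Abca4 carry long runs of summits, and a row with no point is a gene with no summit within 50 kb.

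The counts by role and by pathway list that follow are of small groups chosen by hand, and stand beside 38.1% of the other protein-coding genes within 10 kb and 64.4% within 50 kb. Among the 6 genes of sterol and phospholipid export, 3 had a summit within 10 kb and all 6 within 50 kb. Abca1, which passes cholesterol and phospholipid to apolipoprotein A-I, had 12 summits within 50 kb, 10 of them inside the gene. Close to its TSS they were of ordinary strength, with 37.6 at the promoter, 0.123 kb upstream, and 43.0 in an intron 4.20 kb downstream. At the latter the replicates had 30.8 and 15.8. The strong ones lay deeper in the gene, with 313 at 38.6 kb and 186 at 20.7 kb downstream of the TSS. The peak of 313 had a signal of 198 in replicate 1 (rank 375) and 116 in replicate 2 (rank 452), a near equal place in both lists. This is the Abca1 window shown above, with its single GATA match.

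Abcg1, which moves cholesterol from cells to high-density lipoprotein, had 9 summits within 50 kb but only 1 within 10 kb. That summit had a signal of 38.0 in an intron 3.46 kb downstream, with 30.9 in replicate 1 and 7.06 in replicate 2, and it was the member summit that the conservative list lacked. A stronger summit of 126 lay in another intron of the gene, 19.4 kb upstream of its nearest TSS, with 73.3 and 52.2 in the replicates. Abcg4, a sterol exporter close to Abcg1 in sequence, had its summit of 116 just 0.003 kb from its TSS. The replicates gave 69.1 and 47.7 there, with ranks 3363 and 2318, and it was the highest promoter summit that was also its gene's strongest. Abca7, a phospholipid transporter, had its nearest summit (34.1) 11.1 kb away and its strongest within 50 kb (125) at the promoter of Polr2e.

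Abcg5 and Abcg8 encode the subunits of the transporter that secretes sterols into bile, and they stand head to head on chromosome 17. In the optimal list neither had a summit within 10 kb. The nearest (48.8) lay in an intron of Dync2li1, 25.4 kb from a TSS of Abcg8 and 31.3 kb from a TSS of Abcg5. The strongest within 50 kb (167) lay in an intron of Lrpprc, 45.6 kb from Abcg8, with 104 and 66.4 in the replicates. The conservative list held 2 summits at the pair. The shared promoter had a signal of 27.7, with 15.3 in replicate 1 and 12.2 in replicate 2. An Abcg8 intron, 6.39 kb from that gene's TSS, had 52.4, with 39.8 in replicate 1 (rank 7551) and 10.3 in replicate 2 (rank 19096). Whether the pair counts as having a summit within 10 kb thus differed between the authors' lists. Both peaks had an entry in each replicate's own list, but those lists hold 300000 peaks each, so an entry alone says little.

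Of 14 partners and regulators of the sterol pathway, a list chosen by hand, 13 had a summit within 10 kb, beside 38.1% of the other protein-coding genes and 51.9% of those with a CpG-rich start. Pltp, the phospholipid transfer protein gene, had its nearest at 22.4 kb. The highest were Srebf2, which activates cholesterol synthesis genes, at 148 and Rxra, a partner of nuclear receptors, at 128. Nr1h3, the liver X receptor alpha gene whose product activates Abca1 and Abcg1, had 52.9. That summit lay 7.74 kb from the nearest Nr1h3 TSS and within 1 kb of another gene's TSS. Apoa1, the acceptor of Abca1's lipid, had 49.3 at its promoter.

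In the group of other lipid and retinoid transporters, 2 of 4 had a summit within 10 kb. Abca3, known for the surfactant lipid of the lung, had a summit of 78.9 in an intron 2.13 kb downstream of its TSS, with 45.8 and 32.3 in the replicates. The same summit lay 3.11 kb upstream of Abca17 and was counted for both genes, so Abca17 lost its call when a summit counted only for the nearest TSS. Abca4, the retinoid flippase of photoreceptors, had 11 summits within 50 kb, all inside the gene. The closest, of 43.3, was classed as a promoter summit, 0.992 kb upstream of an internal start of the gene record. The replicates gave 22.4 and 18.2 there. With the outermost start of each gene as its only TSS, Abca4 had no summit within 10 kb. The strongest of the 11 was 74.0. Abca2 (nearest 68.7 kb) and Abca12 of skin lipid transport (236 kb) had none within 50 kb.

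Of the remaining 8 genes of subfamily A, whose transport roles are less settled, 3 had a summit within 10 kb, with Abca17 among them. Abca6 had 3 summits, the strongest at 85.6 in an intron 6.87 kb downstream, with 66.8 in replicate 1 and 16.5 in replicate 2, a wide split with ranks of 3533 and 10000. Abca16 was the member just inside the limit, at 9.97 kb, with 42.4 and replicate values of 28.6 and 14.3. Abca5 (19.8 at 27.2 kb) and Abca14 (35.9 at 14.4 kb) had their nearest summits between 10 and 50 kb. Abca9, Abca13 and Abca15 had theirs beyond 50 kb, at 66.5, 221 and 103 kb. The conservative list placed a weak summit (27.3) 2.13 kb inside Abca9, with 17.5 and 9.08 in the replicates.

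Drug and conjugate exporters had a summit within 10 kb at 4 of 8 genes and within 50 kb at 8 of 8, beside 38.1% and 64.4% of the other protein-coding genes. Abcg2, the breast cancer resistance protein that exports drugs, urate and porphyrins, had the strongest summit of all members, 541, which ranked 21 in the optimal list. It lay in an Abcg2 intron 1.88 kb downstream of a TSS, under a peak at chr6:58642264-58642643. The signal was 315 in replicate 1 (rank 15) and 228 in replicate 2 (rank 20), so both replicates place it among their 20 strongest peaks. Summits of 281 at the promoter (0.250 kb) and 238 in an intron (7.99 kb) stood beside it. Summits of 35.8 and 20.3 lay nearer the start of the gene record, 10.2 and 13.6 kb from another TSS, and all 5 summits lay inside the gene. The TSS involved is an internal start of the gene record at chr6:58584523-58695676, and with the outermost start of each gene as its only TSS, Abcg2 had no summit within 10 kb.

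Abcc5, an exporter of cyclic nucleotides and other organic anions, had 3 intronic summits within 3 kb of its TSS, with 82.8, 58.0 and 51.8. The strongest, 1.64 kb downstream, had 58.9 in replicate 1 and 22.1 in replicate 2. Abcc6, a liver transporter whose loss causes pseudoxanthoma elasticum, had 35.5 in an intron at 1.47 kb, below the median of the list. Abcc10 had 35.5 at its promoter, 0.053 kb from the TSS. Abcc1, the exporter of leukotriene C4 and glutathione conjugates, was the member just outside the limit, with 38.7 at 10.6 kb. Abcc4, which exports cyclic nucleotides and conjugates, had 47.2 at 38.5 kb and 6 summits inside the gene, up to 57.3. Abcc12 had its nearest summit (31.1) at 34.6 kb and Abcg3 its own (28.8) at 19.4 kb.

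Genes that regulate these exporters gave 4 of 6 with a summit within 10 kb. Nfe2l2, which encodes the oxidative stress factor NRF2, had the highest at 205. Keap1 and Ahr had none, with the nearest at 25.04 and 19.1 kb. Among 6 hepatocyte uptake carriers 5 had a summit, from 23.6 at Slco1b2 to 114 at Slc10a1, the bile acid uptake carrier, and Slco1a1 had none.

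Of the 4 genes grouped as mitochondrial membrane, heme and iron-sulfur, 2 had a summit within 10 kb. Abcb10, an inner membrane transporter needed for heme synthesis in erythroid cells, had the second strongest summit of the members, 461, which ranked 56 in the optimal list. The peak, chr8:123988643-123988982, lay 5.70 kb upstream of the Abcb10 TSS and had 259 in replicate 1 (rank 80) and 204 in replicate 2 (rank 44). Its place is called intronic only because Gm20388, a long gene model, spans the locus. Within 10 kb stood 4 more summits, from 21.9 to 76.3. Abcb6, a porphyrin transporter that carries the Langereis blood group, had 3 summits within 10 kb. The strongest, 110, lay in its promoter region 0.970 kb downstream of the TSS, with 75.9 and 35.0 in the replicates. Its locus is gene-dense, and 16 summits lay within 50 kb, up to 134.

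Abcb8, another mitochondrial member, had no optimal summit within 10 kb and had its nearest (72.9) at 17.3 kb, at the promoter of Slc4a2. Heme synthesis partners carried strong peaks at 5 of 6 genes, with 470 at Fech, 390 at Alas2, 314 at Tmem14c, 273 at Ppox and 164 at Slc25a38. Slc25a37, the mitochondrial iron importer mitoferrin, had none, with the nearest at 144 kb. Abcb10 thus lies within the range of its partners, and Abcb6 below it.

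Abcb9, a lysosomal peptide transporter, was the third member by its strongest summit within 10 kb, 216, in an intron 3.69 kb downstream of its TSS. The replicates gave 144 (rank 961) and 72.7 (rank 1215). Abcb5 had no summit within 50 kb, with the nearest at 85.0 kb. Of the channel regulators, Abcc9, the SUR2 subunit of ATP-sensitive potassium channels, had 58.0 at an intergenic summit 6.20 kb upstream, with 37.3 and 19.6 in the replicates. Abcc8, the SUR1 subunit of the pancreatic beta cell, had its nearest at 72.3 kb.

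Subfamily D had summits at 3 of 4 genes, all within 1 kb of a TSS. Abcd2, an importer of very long-chain fatty acids into peroxisomes, had 56.3 at 0.109 kb, with 40.7 and 14.7 in the replicates. Abcd4, a cobalamin transporter of lysosomes, had 42.6 at 0.122 kb, with 31.7 and 9.79. Abcd3, the 70 kDa peroxisomal membrane protein, had 39.1 at 0.703 kb, with 20.8 and 15.9. The last 2 lie near the list's median of 38.3, and Abcd2 above it. All 5 peroxisomal partner genes had a summit within 10 kb, among them Acaa1b, a thiolase of peroxisomal beta-oxidation, with 106.

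Of the 4 genes without a membrane domain, 1 had a summit within 10 kb. Abcf2 had 54.7 at 0.132 kb, with 42.9 in replicate 1 and 9.11 in replicate 2, ranks 6747 and 23016. Abce1, which splits ribosomes for recycling, was the farthest of all members from a summit, at 297 kb. Abcf1, which acts in translation initiation, had 145 at 32.3 kb and Abcf3 had 91.8 in an intron of Vwa5b2 at 35.6 kb. The 3 ribosome recycling partners of Abce1 all had a summit, with 132 at Pelo, 78.3 at Hbs1l and 16.3 at Etf1.

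Motif matches in the 34 summit windows lay near the rates of the whole list. The GATA motif, in the forms AGATAA and TGATAA, was found in 10 of 34 (29.4%, 15.1 to 47.5), against 32.8% of all windows. The matches fell at 9 of 19 distal summits and 1 of 15 promoter summits, beside 38.1% and 12.8% of all such windows. The E-box (CAGNTG), which can overlap other motifs, was found in 11 (32.4%, against 27.3%). CEBP (TTGCNNAA) was found in 4 (11.8%, against 8.93%) and NFY (CCAAT) in 3 (8.82%, against 13.1%). NFE2 (TGAGTCA or TGACTCA) and the nuclear receptor element AGGTCA were each found in 3 (8.82%, against 4.40% and 9.12%). FOXA (TGTTTAC or TGTTTGC) and HNF4A (CAAAGTCC or CAAAGTTC) were each found in 2 (5.88%, against 6.28% and 2.33%). KLF (CCACACCC or CCACGCCC) and ETS (CCGGAAG) were each found in 1 (2.94%, against 2.32% and 2.76%). HNF1 and NRF1 motifs were found in 0 of 34, which leaves a share of up to 10.3% possible, and in 0.0410% and 0.0261% of all windows. Both strands were searched, and for all 12 motifs the interval of the members' share held the share of the whole list.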

How the data were processed

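EP300 ChIP-seq of newborn mouse liver was analysed from peak lists on mm10. Per the file headers, the authors made a list for each replicate (300000 peaks each) and, from both, an optimal and a conservative IDR list. The deposited signal value of each peak comes from the authors' peak caller, with an unstated scale. No source used here states the caller, the aligner or the IDR threshold.

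A summit is the peak start plus its deposited offset. TSSs are the starts of protein-coding transcripts in GENCODE M21. A replicate's value is its highest peak spanning the summit. The counts cover every member, a few of which are not reported here by name. The others were named, with replicate values for those whose strongest summit was at or above the members' median, or was a promoter summit above the list's median; a few more were given for description. Joins were tested on simulated data. Shares carry 95% Clopper-Pearson intervals (scipy 1.17.1, numpy 2.4.6, Python 3.11.15, matplotlib 3.10.9). With 1 group no test between groups was possible. Members and lists were chosen with earlier results of these data known. Alternatives changed the list, replicate, threshold, TSS set, assignment and member rule.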

Additional observations from a re-analysis of the deposited data

How the results depend on the processing

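ABC genes had the higher share than the other genes under every alternative run at 10 and 50 kb. The difference at 10 kb ranged from 5.18 points (1 TSS per gene) to 21.1 points (without replicate 2), and at 50 kb from 10.3 to 19.9 points. Within 1 kb the count was 11 genes (26.2%, against 22.2% of the other genes). The count within 10 kb was 17 (40.5%, against 25.2%) for the upper 50% of peaks, which lost Abcc10, Abcc6 and Abcg1. It was also 17 (40.5%, against 35.3%) with 1 TSS per gene, which lost Abca16, Abca4 and Abcg2. As many of the highest peaks of a single replicate gave 24 genes without replicate 1 (57.1%, against 37.7%). Without replicate 2 they gave 26 (61.9%, against 40.8%). Leaving out either replicate added Abca9, Abcg5 and Abcg8. Starts of all transcript types, an alternative chosen after seeing the data, added Abcc4 for 21 (50%, against 40.9%). The median strongest signal was 78.9 for the upper 50% of peaks, where weaker peaks are left out. On leaving out a replicate it was 15.9 and 38.6, over 24 and 26 genes. Those 2 medians are signals of the remaining replicate's own list, so they are not comparable with the 57.2 of the optimal list. The KLF share was 0 with 25 bases on each side of the summit, a shorter window. With a CpG ratio of 0.75, 36.4% of 11 CpG-rich ABC genes had a summit, against 54.3% of other such genes. No paired analysis was possible because there is only 1 group. Depth is unknown, so a missing summit does not show that EP300 is absent.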

Other observations

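The 4 bile exporter genes left out by the rule each had a summit within 10 kb, beside 38.1% of the protein-coding genes that are not members. Abcb4, the phosphatidylcholine flippase of bile, had 357 in an intron 1.04 kb from its TSS, with 224 in replicate 1 and 128 in replicate 2. Abcc2 had 40.0, Abcc3 28.6 and Abcb11, the bile salt export pump, 27.5. With these 4 added, 24 of 46 genes (52.2%) had a summit within 10 kb, against 38.1% of the other genes. Of the symbols that end in a letter, Abca8a had 49.6, Abcb1a 36.5 at its promoter and Abca8b 29.9, while the nearest summit of Abcb1b lay 42.0 kb away.

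Family genes with other names also differed. Tap2, which carries peptides for antigen presentation, had a summit of 119 in an intron. Its partner Tap1 had none within 10 kb, with the nearest at 18.04 kb, and Cftr, the chloride channel of epithelia, had its nearest at 130 kb.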
